A study of Mus musculus with 3 samples.

Results

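The lipid sphingosine-1-phosphate (S1P) and the genes that sense, make, export and degrade it were read in 3 stromal cell populations of the mouse mesenteric lymph node. The 10 genes were the receptors S1pr1 to S1pr5, the kinases Sphk1 and Sphk2, the exporter Spns2, the lyase Sgpl1, and Enpp2, which encodes autotaxin, the enzyme that makes the related lipid lysophosphatidic acid. They were taken by gene name, with older Edg names allowed for the receptors, and every probe of each gene was kept. They make up 10 of 28470 genes and 16 of 41156 probes on the array. For 5 of the genes there was 1 probe, and for the other 5 there were several.

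The series concerns dietary lipids and the architecture of the mesenteric lymph node, which drains the intestine. Its 3 samples are all from wild-type C57BL/6NCrl mice, with no treatment named. Fibroblastic reticular cells (FRC) were sorted as gp38+ CD31- cells, lymphatic endothelial cells (LEC) as gp38+ CD31+ cells and blood endothelial cells (BEC) as gp38- CD31+ cells. All 3 came from collagenase-digested nodes after magnetic removal of CD45+ cells, with a CD45- CD24- gate. The labels give a mean sorted purity of 88% ± 1.5 over the subsets without saying what the error is, and the age, sex, diet and number of mice behind each RNA are not given in the sources used here. Each population was hybridised to 1 single-colour Agilent array. There is therefore no replicate of any population, no difference between populations could be tested, and every fold below compares 1 array with another.

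S1P is made inside cells when sphingosine kinases phosphorylate sphingosine, and it leaves through transporters such as Spns2. Outside the cell it acts on 5 G protein-coupled receptors, and inside the cell it is split irreversibly by the lyase Sgpl1 or dephosphorylated by phosphatases. Lymph and blood hold much S1P and lymphoid tissue holds little. Lymphocytes follow that gradient out of the node through S1pr1, and lymphatic endothelium is a source of lymph S1P through Spns2. In endothelium S1pr1 supports the barrier between cells, whereas S1pr2 can weaken it. Autotaxin is secreted by stromal cells and by high endothelial venules, where its product aids lymphocyte entry.

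The array reads each gene through 60-base oligonucleotides, so a value belongs to a stretch of the transcript. S1pr2 had 3 such probes, all on the minus strand of mouse build mm9, and their letters are shown because the order of LEC and BEC depended on which was read. The most downstream, A_52_P604613 (chr9:20770729-20770788), stands for the gene, and its first 30 bases are given. The other probes, A_51_P499871 (chr9:20772321-20772380) and A_51_P499876 (chr9:20772462-20772521), are given whole, as is A_51_P307944 (chr10:80961501-80961560, minus strand), the only S1pr4 probe, on which the BEC result for that receptor rests. No capitals mark any base in these 4 oligonucleotides, and no exon annotation of that build was used here.
A_52_P604613: tcctgtggagaaatagaaaaatccaatacg
A_51_P499871: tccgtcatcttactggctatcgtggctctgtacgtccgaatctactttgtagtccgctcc
A_51_P499876: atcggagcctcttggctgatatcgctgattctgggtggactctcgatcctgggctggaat
A_51_P307944: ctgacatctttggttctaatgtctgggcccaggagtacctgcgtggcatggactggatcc

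S1pr2 and S1pr3 were the receptors at their highest in FRC, so their promoters are shown as well. Each window runs from 250 bases before to 50 bases after the RefSeq start on GRCm38.p6, at chr9:20976744-20977043 on the minus strand for S1pr2 and chr13:51408368-51408667 on the plus strand for S1pr3, written 5′ to 3′ along the gene. Capitals mark matches, on either strand, to any of 5 motifs that were searched: the cyclic AMP response element TGACGTCA, the GC box GGGCGG, the core promoter motif TATAAA, the Krüppel-like factor motif CACCC and the AP-1 motif TGANTCA.
S1pr2: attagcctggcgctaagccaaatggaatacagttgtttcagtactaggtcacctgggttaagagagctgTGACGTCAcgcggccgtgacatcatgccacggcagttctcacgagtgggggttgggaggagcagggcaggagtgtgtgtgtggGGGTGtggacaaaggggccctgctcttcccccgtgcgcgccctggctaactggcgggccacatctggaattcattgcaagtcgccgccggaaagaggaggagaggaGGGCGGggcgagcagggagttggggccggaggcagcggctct
S1pr3: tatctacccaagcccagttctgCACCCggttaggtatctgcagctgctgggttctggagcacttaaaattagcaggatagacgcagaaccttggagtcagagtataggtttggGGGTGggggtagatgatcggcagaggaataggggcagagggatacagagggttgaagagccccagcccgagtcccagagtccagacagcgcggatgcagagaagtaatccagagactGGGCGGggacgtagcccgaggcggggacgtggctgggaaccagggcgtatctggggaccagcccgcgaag

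The S1pr2 window held the TGACGTCA motif with its first base at -181 from the start (the start base is 1), a CACCC match on the opposite strand at -98 and a GC box at 9. The S1pr3 window held a GC box at -20 and CACCC matches at -228 and -137. Of 32851 RefSeq windows of 300 bases, 1.79% held TGACGTCA, 35.7% the GC box, 57.5% CACCC, 13.6% TATAAA and 7.81% TGANTCA. RefSeq windows were found for 8 of the 10 genes, 13 windows in all, some of which overlap. Only S1pr2 and Sphk2, 1 window each, matched TGACGTCA, and in Sphk2 that match overlapped a CACCC match. These are matches of letters and say nothing of what binds there.

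Levels are given as processed intensities and as log2 ratios to the array's own 75th percentile, an intensity of 387 for FRC, 268 for LEC and 361 for BEC. The scanner software marked 59.7% to 60.5% of probes as well above background, and the lowest such signals lay between -4.38 and -4.20 on the log2 scale. No spot was saturated. An error given with a log2 value is the scanner software's own error for the spot, combined over both arrays for a difference, and it covers neither mice nor sorts. A gene was called different at 4-fold, and where it was not well above background on the dimmer array the fold is a lower bound measured from that array's lowest such signal. The headers also give a slope of signal on spike-in concentration of 0.821, 1.00 and 0.919 for FRC, LEC and BEC, so equal log2 differences need not stand for equal differences in RNA. Dividing by these slopes moved LEC minus FRC to -3.59 log2 for S1pr3, -2.45 for Sgpl1, -3.97 for Enpp2 and -0.69 for Sphk1, further from 0 in each than the values given below.

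The labels were checked against markers before the genes were read. The FRC genes Pdgfra, Pdgfrb, Ccl19, Col1a1 and Lum were all over 4-fold higher in FRC than in LEC and BEC, and all 5 LEC genes (Prox1, Lyve1, Flt4, Mmrn1, Reln) were higher in LEC than in FRC. The BEC genes Flt1, Emcn, Vwf and Plvap, but not Cd34, were over 4-fold higher in BEC than in FRC. Between the endothelial populations, 4 of 5 LEC genes were over 4-fold higher in LEC, and Flt4 was 1.50-fold higher there. Of 5 BEC genes, 4 were over 4-fold higher in BEC than in LEC, and Plvap was 2.84-fold higher. The summed signal of a list, in multiples of each array's 75th percentile, was 949 in FRC against 38.5 in LEC and 18.3 in BEC for the FRC genes. For the LEC genes it was 0.996, 201 and 19.8, and all 5 were also over 4-fold higher in BEC than in FRC. In the same order, the sums were 147, 151 and 825 for BEC genes, 6.21, 10.73 and 5.19 for macrophage or dendritic cell genes, 5.51, 17.6 and 12.1 for platelet genes, and 6.41, 32.3 and 94.0 for red cell genes. Pecam1, which encodes CD31, was at -4.06, 2.33 and 4.02 log2, whereas the gp38 gene Pdpn was at -0.83, -1.19 and -3.81. Cd24a, whose product was gated out, was at 1.61, 3.40 and 3.89, which is 4.86-fold higher in BEC than in FRC. In sorted bulk RNA, fewer cells of a type and less RNA per cell cannot be told apart.

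In LEC against FRC, 1 of the 9 genes compared was over 4-fold higher in LEC (S1pr1) and 3 were over 4-fold higher in FRC (S1pr2, S1pr3 and Enpp2). Among all 18623 genes compared, 4.85% were that much higher in LEC and 5.9% in FRC. In BEC against FRC, S1pr1 and S1pr4 were higher in BEC and S1pr2, S1pr3 and Sgpl1 were higher in FRC, of 10 compared. The share of all 19023 genes was 6.55% for BEC and 7.54% for FRC. LEC and BEC differed by 4-fold in S1pr4 alone, which was higher in BEC, against 3.37% of 18496 genes higher in LEC and 3.38% higher in BEC. The median log2 difference of the compared members in these 3 comparisons was -0.16, -0.12 and 0.03 (LEC minus BEC last), beside medians over all genes of 0.02, 0.09 and -0.06. Both comparisons with FRC use the same FRC array, so they are not independent of each other.

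**Figure D1:**
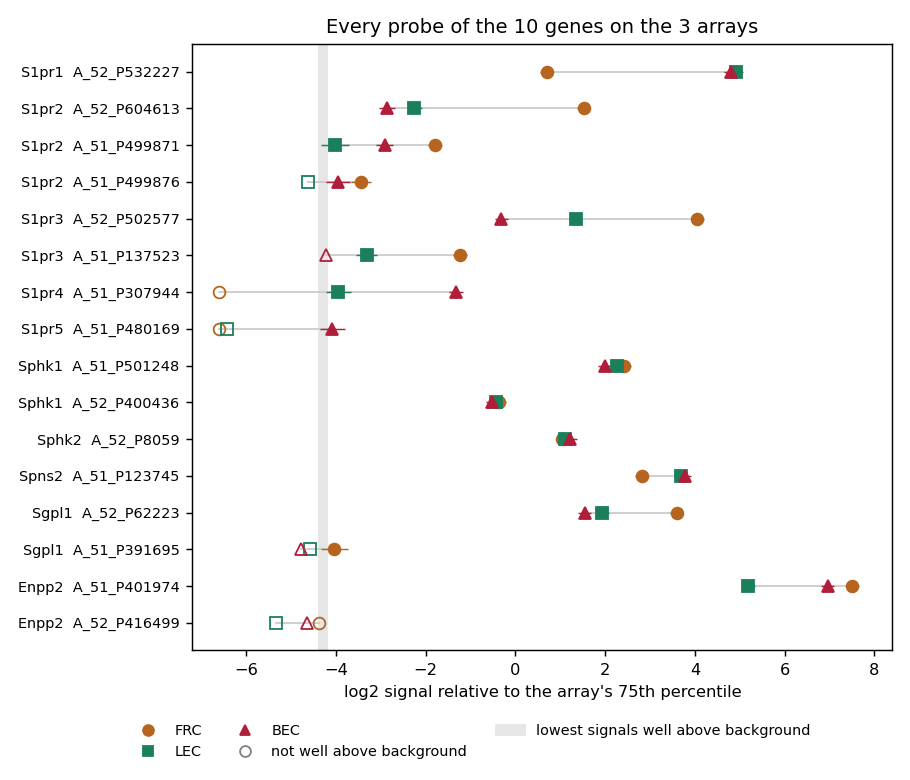
Log2 signal relative to the array's 75th percentile (horizontal axis) for each of the 16 probes of the 10 genes on the FRC, LEC and BEC arrays. Bars are the scanner software's spot error, open symbols are not well above background, and the grey band spans the lowest signals well above background on the 3 arrays. S1pr1 is far lower in FRC (0.70) than in LEC (4.92) and BEC (4.80), the bright S1pr2 and S1pr3 probes are highest in FRC, and the kinase probes of the 3 arrays lie almost on top of each other.

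S1pr1, the receptor that endothelial cells use for barrier function and lymphocytes use for exit, was higher in both endothelial populations than in FRC. The gene was well above background on every array, FRC included. Its probe A_52_P532227 (mm9 chr3:115414020-115414079) gave intensities of 630 in FRC, 8136 in LEC and 10022 in BEC, or 0.70, 4.92 and 4.80 on the log2 scale. The LEC value was 18.6-fold above FRC (log2 4.22 ± 0.20 spot error) and the BEC value 17.1-fold above FRC (4.09 ± 0.20). Both endothelial arrays stood apart from FRC by far more than the spot error, and the difference between them, 0.13 ± 0.20, was smaller than that error. Of 18623 genes, 211 were higher in LEC than in FRC by more than S1pr1, and of 19023 genes 321 were higher in BEC by more.

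S1pr2, which restrains migration in many cells, showed the opposite order. On its brightest probe the intensity was 1112 in FRC, 56.3 in LEC and 49.5 in BEC, or 1.52, -2.25 and -2.87 log2. FRC was 13.7-fold above LEC and 21.0-fold above BEC, while LEC minus BEC was 0.61 ± 0.25. This probe was well above background on every array, and FRC stood apart from both endothelial populations by far more than the spot error.

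The other S1pr2 probes kept FRC highest and turned the order of LEC and BEC. On A_51_P499871 the log2 levels were -1.80 in FRC, -4.02 in LEC and -2.91 in BEC, which puts FRC 4.66-fold above LEC and 2.16-fold above BEC. There LEC minus BEC was -1.11 ± 0.36. On A_51_P499876 the levels were -3.44 in FRC and -3.95 in BEC, and LEC was not well above background. So the lead of FRC held in all 3 probes, its size over BEC ran from 1.43-fold to 21.0-fold, and no order of LEC and BEC can be given for this gene.

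S1pr3, which couples to several G protein classes and is known from fibroblasts and mural cells, was also highest in FRC and stepped down through LEC to BEC. Its probe A_52_P502577 (mm9 chr13:51517079-51517138) gave 6400 in FRC, 680 in LEC and 291 in BEC, or 4.05, 1.34 and -0.31 log2. FRC was 6.52-fold above LEC and 20.5-fold above BEC, and LEC was 3.15-fold above BEC (1.65 ± 0.21). The 3 arrays were each apart by more than the spot error. On the upstream probe A_51_P137523 (chr13:51515408-51515467) the order was the same, with -1.23 in FRC and -3.32 in LEC, and BEC was not well above background. There the difference of LEC from FRC was 4.24-fold.

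Pericytes and smooth muscle cells also carry S1pr3. Their 6 listed genes were well above background on every array, with sums of 72.0 in FRC, 58.7 in LEC and 47.3 in BEC. Of these, Notch3 and Kcnj8 were over 4-fold lower in LEC than in FRC, and Rgs5 and Kcnj8 were over 4-fold lower in BEC than in FRC. The other measured Rgs5 probe went the opposite way in BEC minus FRC, 0.87 against -2.19 log2. No other difference from FRC on this list reached 4-fold on the brightest probes. Notch3 was level in FRC and BEC (2.52 log2 in each), and Myh11 was 2.85-fold higher in BEC than in FRC. Acta2, the brightest of the list, made up most of its sum on every array, so the order of the sums leans on that gene. It was highest in LEC, at 5.48, 5.67 and 5.17 in FRC, LEC and BEC. The defining FRC genes summed to 38.5 in LEC against 18.3 in BEC, in the same order as S1pr3 in these populations, although Pdgfrb of that list ran the other way (0.86 log2 in LEC, 2.83 in BEC). The part of either list in the S1pr3 result was not tested.

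S1pr4, a receptor of lymphoid and myeloid cells, was measured above background in the endothelial populations alone. A_51_P307944 gave 144 in BEC (-1.33 log2) and 17.4 in LEC (-3.94), close to the lowest signal well above background on that array (14.6), and in FRC it was not well above background. BEC was at least 8.06-fold above FRC and 6.14-fold above LEC (2.62 ± 0.32 higher on the log2 scale). LEC was at least 1.31-fold above FRC, which is no call. With normexp background correction the BEC difference lost its call in both comparisons. That setting adds an offset of 50 to every signal, more than the LEC signal here, which by arithmetic shrinks folds between dim signals.

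S1pr5, known from natural killer cells and from endothelium of the brain, stayed at the edge of detection. Its probe A_51_P480169 (mm9 chr9:21047678-21047737) was not well above background in FRC or LEC and gave 21.3 in BEC, at -4.08 log2 against a lowest such signal of -4.38 there. The bounds are at least 1.20-fold over FRC and at least 1.08-fold over LEC. LEC and FRC were not compared for this gene.

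Several genes of white blood cells were also higher on the BEC array, although CD45+ cells were removed and gated out. Ptprc, which encodes CD45, was at -2.36 log2 in FRC, -1.57 in LEC and 0.23 in BEC. All 6 T cell genes (Cd3d, Cd3e, Cd3g, Cd2, Lck, Cd247) were well above background on each array, with sums of 1.78, 5.66 and 7.40 in FRC, LEC and BEC, and 3 of 6 were over 4-fold higher in BEC than in FRC. Cd3e ran the other way, at -0.55, -0.73 and -1.12 log2. The brightest in both endothelia, Lck and Cd247, were near level on their brightest probes between LEC (0.79 and 1.44) and BEC (0.44 and 1.58), apart from Cd3d at 0.81 in BEC. The 2 other measured probes of Cd247 disagreed, with LEC minus BEC at -4.67 and 0.21 log2, so no order of LEC and BEC is given for that gene. Of 6 B cell genes, 4, 5 and 5 were well above background, with sums of 1.49, 3.64 and 9.22, and Pax5 was below it on every array. Cd79b, at 2.79 log2, was the brightest of them in BEC. Of 5 natural killer cell genes, 1, 2 and 1 were well above background, with sums of 0.150, 0.520 and 0.434. Ncr1, Klrb1c and Eomes were below it on every array. Prf1 was well above background in LEC alone (-1.52 log2) and made up most of the LEC sum. Gzma, well above background on every array, rose from -3.90 log2 in FRC through -3.16 in LEC to -1.54 in BEC. Its BEC level exceeded that of FRC 5.14-fold and that of LEC 3.07-fold. The macrophage or dendritic cell genes had sums of 6.21, 10.73 and 5.19, lowest in BEC, but most of each sum was Lyz2 (2.43, 3.23 and 2.09 log2). Adgre1 and Cd68 of that list were well above background in LEC and BEC but not in FRC. No gene of it was called at 4-fold in any comparison, and its median BEC minus FRC was 0.08. The part of such cells in the S1pr4 and S1pr5 signals was not tested.

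**Figure D2:**
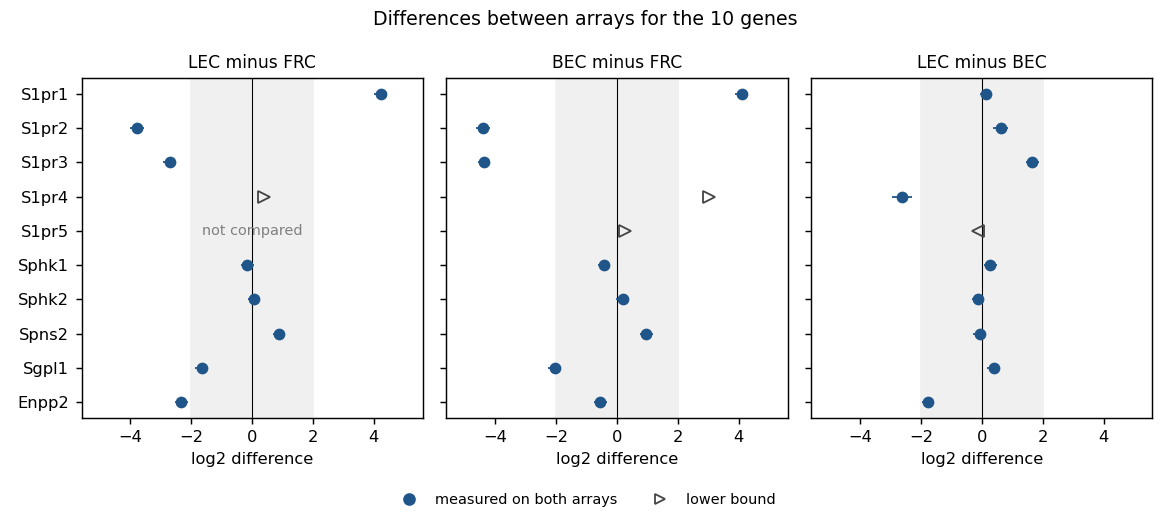
Log2 difference (horizontal axis) between pairs of arrays for the 10 genes, each read on its brightest probe, with the scanner software's spot error as bars; triangles are lower bounds pointing away from 0 and the grey band holds differences under 4-fold. S1pr1 lies at about 4 to the right in both comparisons with FRC, S1pr2 and S1pr3 lie to the left, and in LEC minus BEC only S1pr4 lies outside the band.

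Both sphingosine kinases were near level over the 3 populations. Sphk1, the cytosolic kinase that growth signals bring to the membrane, was at 2.43 log2 in FRC, 2.27 in LEC and 1.99 in BEC on A_51_P501248 (mm9 chr11:116397908-116397967). On A_52_P400436 (chr11:116397462-116397521) it was at -0.36, -0.43 and -0.52. The order was FRC, LEC, BEC on both probes. The widest gap between populations was that of BEC from FRC, 1.35-fold on the first probe and 1.11-fold on the second, and only the former exceeded its spot error (-0.43 ± 0.20).

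Sphk2, the kinase found partly in the nucleus and mitochondria, was at 1.04, 1.10 and 1.22 log2 in FRC, LEC and BEC on A_52_P8059 (mm9 chr7:52965880-52965939). Its widest gap, BEC minus FRC at 0.18 ± 0.20, was within the spot error, so these arrays give no order for it. With 1 array a population, small differences of either kinase cannot be read.

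Spns2, the transporter that releases S1P from endothelial cells, was well above background in all 3 populations, FRC included. A_51_P123745 (mm9 chr11:72265153-72265212) gave 2715 in FRC, 3480 in LEC and 4941 in BEC, or 2.81, 3.70 and 3.78 log2. LEC was 1.85-fold and BEC 1.95-fold above FRC, which is more than the spot error (0.89 ± 0.20 and 0.96 ± 0.20) and below the 4-fold line. With the spike-in slope applied, LEC minus FRC was 0.26 log2. LEC and BEC differed by 0.08 in favour of BEC, within the error. Over all genes compared, 14.9% lay further toward LEC against FRC than Spns2 did and 17.3% further toward BEC.

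Sgpl1, which cleaves S1P for good, was highest in FRC. On A_52_P62223 (mm9 chr10:60561463-60561522) it gave 4662, 1022 and 1053, or 3.59 log2 in FRC, 1.93 in LEC and 1.54 in BEC. FRC was 3.16-fold above LEC and 4.13-fold above BEC, the latter just past the 4-fold line, and LEC minus BEC was 0.39 ± 0.20. When the gene's probes were averaged it no longer reached 4-fold, since its upstream probe A_51_P391695 was well above background in FRC alone, at -4.03, near the lowest such signal.

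Enpp2 was lower in LEC than in both other populations. The probe A_51_P401974 gave 70135 in FRC, 9734 in LEC and 44746 in BEC, or 7.50, 5.18 and 6.95 log2. FRC was 4.99-fold above LEC and 1.46-fold above BEC (0.55 ± 0.20 log2), and BEC was 3.41-fold above LEC. With the spike-in slope applied, BEC minus FRC was -1.57 log2. The order FRC, BEC, LEC had every step larger than the spot error. The files place 23 of this probe's 60 bases at mm9 chr15:54670453-54670475, and the other Enpp2 probe, A_52_P416499 (chr15:54704974-54705033), designed on a cDNA clone, was not well above background on any array.

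Fat cells also secrete autotaxin. Of the 4 adipocyte genes (Adipoq, Plin1, Cidec, Lep), 3 were well above background in FRC, 2 in LEC and 3 in BEC, with sums of 2.28, 1.24 and 3.70, and Lep was below it on every array. The sum was lowest in LEC, as was Enpp2. Plin1 was over 4-fold higher in FRC than in both other populations and Cidec was over 4-fold lower in FRC than in both. The part of fat cells in the Enpp2 result was not tested.

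The other genes of the pathway were read from 6 lists, with 39 genes found on the array. In LEC against FRC, 2 of 35 compared were over 4-fold higher in LEC and 4 higher in FRC, with a median of 0.43. In BEC against FRC the counts were 4 and 3 of 36, with a median of 0.13. In LEC against BEC, 1 of 35 was higher in LEC and 6 in BEC, with a median of -0.16. These counts are read beside the shares over all genes given above.

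Receptors of lysophosphatidic acid, the product of autotaxin, had the largest share of 4-fold differences among the 6 lists in each comparison. Lpar1, the receptor best known from fibroblasts, was at 3.64 log2 in FRC, -0.14 in LEC and -3.46 in BEC. FRC was 13.7-fold above LEC and 137-fold above BEC, and LEC 10.0-fold above BEC, with the same order on its other probe. Lpar4 was at 2.56, -1.77 and 1.25, so LEC was 20.1-fold below FRC and 8.12-fold below BEC. Its other probe gave the same order, but BEC minus FRC was -2.84 log2 there, past 4-fold, against -1.31 on the brightest.

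Lpar6, a receptor coupled to G12/13 proteins and known from endothelium, was the one receptor of this list over 4-fold higher in BEC than in both other populations. Its levels were 2.57 in FRC, 2.14 in LEC and 5.10 in BEC, so BEC was 5.79-fold above FRC and 7.78-fold above LEC. Lpar3 was well above background in FRC alone (-1.88), at least 4.98-fold above LEC and 5.65-fold above BEC. Lpar5 was level (0.16, 0.22 and 0.08), and Lpar2 was not well above background on any array. In all, 3 of 5 compared were over 4-fold lower in LEC than in FRC. The list's median was -2.32 in LEC minus FRC, -1.31 in BEC minus FRC and -1.41 in LEC minus BEC.

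Among phosphatases of S1P and related lipids, Plpp3, an ecto-enzyme that removes extracellular S1P and lysophosphatidic acid, had an order like that of Enpp2. It was at 7.35 log2 in FRC, 4.81 in LEC and 7.07 in BEC, which puts LEC 5.79-fold below FRC and 4.76-fold below BEC. Sgpp1, the phosphatase of the endoplasmic reticulum, was at 2.60 log2 in FRC, 1.06 in LEC and -0.33 in BEC, with FRC 7.63-fold above BEC and 2.91-fold above LEC. That is the order of Sgpl1, the other enzyme that removes S1P inside the cell. Plpp1 (4.33, 3.80, 5.69) and Plpp2 (-1.92, -1.03, -0.83) reached no 4-fold difference, and Sgpp2 was not well above background on any array.

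Ceramidases, which free the sphingosine that the kinases use, were higher in endothelium where they differed. Acer2, a Golgi ceramidase, was at -4.10 log2 in FRC, close to the lowest signal well above background, 0.77 in LEC and 1.13 in BEC. That is 29.4-fold higher in LEC and 37.6-fold in BEC on this probe, and its other probes gave smaller log2 differences, from 0.65 to 3.06 for LEC and from 0.58 to 3.39 for BEC. Asah2, the neutral ceramidase, exceeded its FRC level 5.09-fold in LEC (-0.98 in FRC, 1.37 in LEC, -0.44 in BEC), with 1.86 and 1.89 log2 on other probes. Asah1, the lysosomal enzyme, was at 2.64, 2.75 and 2.17, and Acer3 at 0.64, 1.14 and 1.35, both without a 4-fold difference. Acer1 was not well above background on any array.

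Of the carriers and transporters, 2 were over 4-fold higher in BEC than in both other populations. Abcg2, an efflux pump, was at 2.19 log2 in FRC, 2.73 in LEC and 5.30 in BEC, so BEC was 8.64-fold above FRC and 5.93-fold above LEC, and its other probe gave 3.35 and 2.28 log2 higher in BEC. Mfsd2a, a transporter of lysophospholipids in brain endothelium, was well above background in BEC alone (-1.36), at least 7.86-fold above FRC and 7.13-fold above LEC. Abca1, Abcc1, Spns1, Spns3 and Apom, the S1P chaperone of lipoproteins, reached no 4-fold difference, and Mfsd2b, the S1P exporter of red cells and platelets, was not matched to a probe here.

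The 9 G proteins and GTPases that the receptors act through were well above background on every array, and none reached 4-fold on its brightest probe in any of the 3 comparisons. Gnai2, an inhibitory subunit that S1pr1 couples to, was at 4.46 log2 in FRC, 5.77 in LEC and 4.39 in BEC. Gna12 was at -1.80, -0.31 and -0.50, and Gna13, the other subunit of its class, at 2.64, 2.51 and 2.07. Rhoa (5.77, 5.13, 5.53) and Rac1 (5.35, 5.90, 6.14) varied by under 2-fold on their brightest probes, and the other Rac1 probe gave 1.03 log2 in LEC minus FRC. The 3 other measured probes of Gnai1 disagreed with each other, from -4.77 to 4.50 log2 in BEC minus FRC, so no order is given for that gene.

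On their brightest probes, none of the 7 regulators of S1pr1 reached 4-fold in LEC or in BEC against FRC. Klf2, the flow-responsive factor that drives S1pr1 transcription, was at 5.51 log2 in FRC, 5.87 in LEC and 7.41 in BEC, so BEC was 3.73-fold above FRC and 2.91-fold above LEC. Its other probe gave 0.99 and 0.47 for the same differences. Arrb1, an arrestin that takes receptors off the surface, was just short of 4-fold higher in LEC (5.51 log2) than in FRC (3.51), with 0.89 log2 on its other probe. Cd69, the activation antigen that pulls S1pr1 from the lymphocyte surface, was 7.06-fold higher in BEC than in LEC, with -3.32, -4.16 and -1.34 in FRC, LEC and BEC, and it was highest on the array where the T and B cell sums were highest, whose part in it was not tested. Grk2, Arrb2, Dnm2 and Stat3 stayed within 4-fold in all 3 comparisons on their brightest probes, but in BEC minus FRC another probe of Grk2 gave 2.09 log2 and another of Dnm2 gave 2.55, both past 4-fold.

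**Figure D3:**
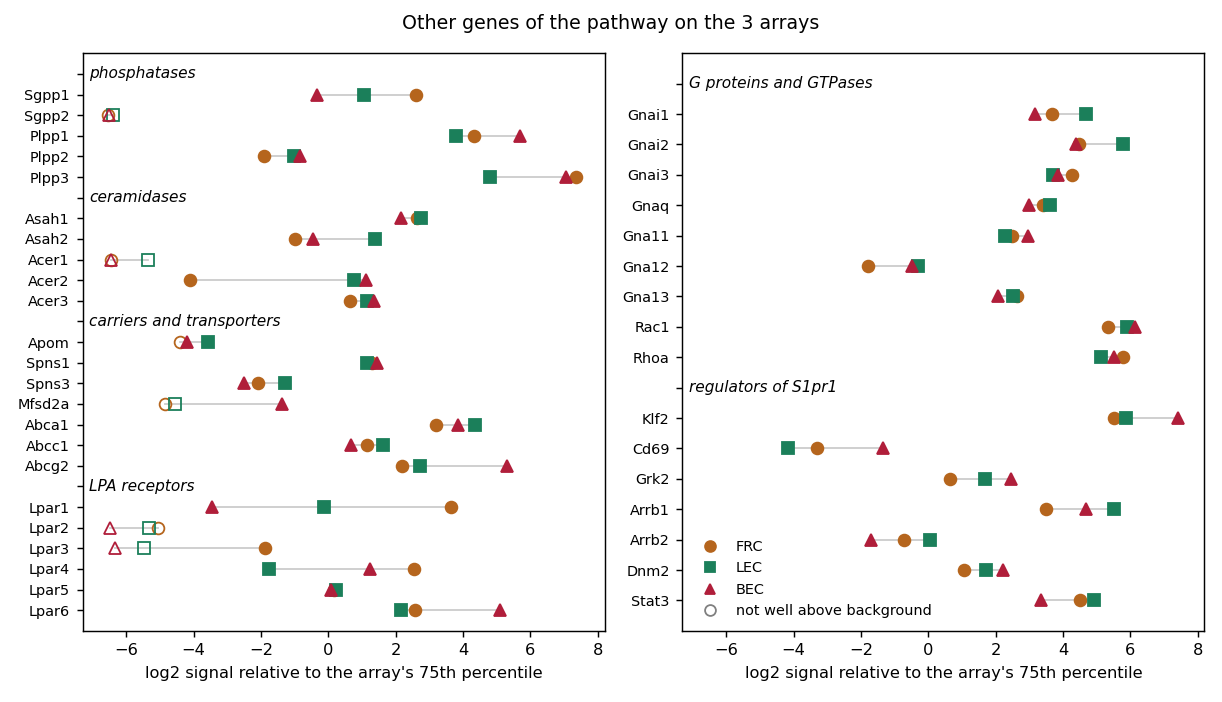
Log2 signal relative to the array's 75th percentile (horizontal axis) for the 39 other genes of the pathway found on the array, each on its brightest probe, grouped by role, on the FRC, LEC and BEC arrays. Open symbols are not well above background. Lpar1 spans from 3.64 in FRC to -3.46 in BEC and Acer2 from -4.10 in FRC to 1.13 in BEC, while the 9 G proteins and GTPases stay close together.

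Genes with profiles most like those of the members were sought by the Euclidean distance between log2 levels centred on their mean. The search covered 12736 of the 15718 genes well above background on all 3 arrays. It left out names of clone, accession, locus or predicted-gene form, so the counts below cover only the genes searched. With 3 arrays such likeness is loose, and between 22 and 262 genes lay within 0.5 of a member. S1pr1 was nearest to Zdhhc2 (distance 0.118), Cd274 (0.130) and Chn2 (0.145), and 22 genes lay within 0.5. For example, Cd274 was at -1.78 log2 in FRC, 2.63 in LEC and 2.42 in BEC.

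S1pr2 was nearest to Klhl13 (0.0825), Cntfr (0.0930) and Fat1 (0.137), on its brightest probe only, with 50 genes within 0.5. S1pr3 was nearest to Slc7a8 (0.111), Mpp6 (0.155) and Entpd2 (0.165), with 28 such genes, and Entpd2 stood at 5.97 log2 in FRC, 3.18 in LEC and 1.38 in BEC. The profile of Sgpl1 was common, with 262 genes within 0.5, of which Slc41a3 (0.0092), Sat2 (0.0322) and Adk (0.0399) were nearest. Enpp2 was nearest to Kazn (0.0454), Fzd4 (0.0987) and Cited2 (0.138), with 68 genes within 0.5. All of these share the FRC-high, LEC-low order, as in Fzd4 at 3.55, 1.15 and 2.86.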

How the data were processed

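RNA (30 to 50 ng) was amplified once and dye-coupled, per the labels' protocols. Per the submitters' processing notes, the deposited intensity values were made with Agilent Feature Extraction, version 10.7.3.1. The file headers record that background was subtracted and spatial trends were removed in each array, that the arrays were not scaled to each other, and that all 3 shared 1 slide. The authors' series matrix, likewise intensity values, served as an alternative, and its making is not stated in the sources used here.

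Outlier spots were dropped, which removed 18 of 41174 probes, and a probe's spots were averaged as log2. The 75th percentile of each array was subtracted. Accessions matched 26681 probes in RefSeq's GRCm38.p6 table and changed 3169 names. The probe brightest on average represents its gene. Genes with a probe well above background on at least 1 array of a pair were compared. With 1 array a population, counts at a fixed fold replace tests, and the number of arrays limits the precision. On each array 159 to 163 probes with many replicate spots were well above background, and their median SD was 0.0551 to 0.0577 log2. The members' probes had 1 spot each, so this SD does not cover them.

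The members and lists were chosen with earlier results of these data known. Named were all members with every probe, list genes at 4-fold or known for their role, and the 3 nearest profiles of members that spanned 4-fold and were well above background throughout. The comparison of 2 arrays was the step tested on simulated data. Python 3.11.15, numpy 2.4.6, pandas 2.3.3, R 4.3.3 and limma 3.58.1 were used. The 9 alternatives changed normalization, background, source, filter, probe choice, spike-in slope or fold.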

Additional observations from a re-analysis of the deposited data

How the results depend on the processing

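Under the 7 alternatives other than the fold threshold, S1pr1, S1pr2, S1pr3 and Enpp2 kept their 4-fold difference between LEC and FRC, and S1pr1, S1pr2 and S1pr3 kept theirs between BEC and FRC. In LEC against FRC, where 4 members differed by 4-fold, no filter added S1pr4 and the spike-in slope added Sgpl1, each giving 5. At 8-fold 2 remained (S1pr1 and S1pr2). In BEC against FRC, with 5, normexp dropped S1pr4 and the mean of a gene's probes dropped Sgpl1, each giving 4, and no filter added S1pr5, giving 6. In LEC against BEC the single call, S1pr4, was lost under normexp (0 called) and at 8-fold (0 called), while S1pr5 joined it without a filter (2 called), Enpp2 joined it with the spike-in slope (2 called) and S1pr3 and Enpp2 joined it at 2-fold (3 called). The share of all genes past 4-fold was 10.8%, 14.1% and 6.75% in the 3 comparisons and 6.41%, 8.48% and 3.34% under normexp. Normexp was run with an offset of 50 added to every signal, which by arithmetic shrinks folds between dim signals. How much of these changes the offset makes up was not tested.

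By size, S1pr2 in BEC minus FRC ranged from -4.97 to -2.01 and Enpp2 in LEC minus FRC from -3.97 to -2.14. LEC minus BEC changed sign for S1pr2 in 1 of 7 alternatives (the mean of its probes), for S1pr1 in 1 and for Spns2 in 2, and LEC minus FRC changed sign for Sphk2 in 1. No value near the lowest signal well above background (S1pr4 in LEC, S1pr5 in BEC) can be ordered firmly. No paired analysis was possible because each population has 1 array.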
